A study of Mus musculus with 9 samples.

Results

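Vwf-positive Procr-positive cells were taken from Lin- cKit+ Sca1+ (LSK) bone marrow cells, the mouse fraction that holds haematopoietic stem cells and multipotent progenitors, profiled by droplet-based single-cell RNA sequencing. A cell was a member if it had at least 1 UMI (a counted RNA molecule) of both Procr and Vwf and none of Flt3 or Mki67. It also had to have fewer than 80 UMIs per 10000 from Fos, Fosb, Jun and Egr1 together and had to lack the combination of at least 2 Cd74 UMIs with at least 2 MHC class II UMIs (H2-Aa, H2-Ab1 and H2-Eb1 summed). Of 15975 cells within the quality limits, 1012 (6.33%) were members. The first 4 genes of the rule left 1484 cells. The MHC class II limit removed 288 of them and the immediate early gene limit 236, with 52 cells counted under both limits. The 2001 cells that met every criterion except that they had no Vwf UMI are called Vwf-negative Procr-positive cells. The members therefore rest on the measured UMIs of these genes, and differences in these genes between members and other cells are given without a test.

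The 9 libraries came from C57BL/6 mice, 3 each from young mice (10 to 12 weeks), aged mice (more than 80 weeks) and aged mice given CASIN, an inhibitor of the small RhoGTPase Cdc42. CASIN was injected intraperitoneally at 25 mg per kg, 4 times at intervals of 24 h, and cells were taken on day 5. Both control groups received the cyclodextrin vehicle alone. All cells had been frozen viably and thawed before sorting. The sources do not state that each library was a separate animal, so the spread between libraries may be partly technical. Libraries young 1, young 2, aged 1, CASIN 1 and CASIN 2 formed batch 1, and young 3, aged 2, aged 3 and CASIN 3 formed batch 2. In the members, Xist was at 0 to 0.407 CPM (UMIs scaled to the same total in every library) in batch 1 and at 2057 to 2694 CPM in batch 2, while Ddx3y was at 53.0 to 79.9 CPM in batch 1 and at 0 in batch 2. Batch and sex of the mice therefore coincide and cannot be told apart.

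Haematopoietic stem cells renew themselves and give rise to all blood lineages. Procr, the endothelial protein C receptor, marks the most primitive cells of this fraction. Vwf, von Willebrand factor, is a large adhesive glycoprotein that platelets and endothelial cells store and release. Stem cells that transcribe Vwf are known for a bias towards platelets and for a growing share of the stem cell pool with age. Flt3 marks multipotent progenitors with lymphoid potential, and Mki67 marks dividing cells.

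The label was checked against markers that the rule did not use. The stem cell genes Mecom and Hlf were present in the members of every library, with means over the 9 libraries of 202 and 229 CPM. Other stem cell genes were less even. Slamf1 was seen in 0% (young 3) to 57.4% (CASIN 1) of the members of a library. Sult1a1 was seen in 13.3% (young 3) to 87.2% (CASIN 1) and Fgd5 in 15.8% (young 2) to 50% (young 1). Of the platelet and megakaryocyte list, Gp6, Ppbp and Tubb1 had no UMI in any member, whereas others were present: Pf4 was seen in 0 to 24.5% of the members of a library and Itga2b in 13.3 to 41.0%. Among other cell types, the macrophage markers had no UMI in any member. Neutrophil markers reached at most 31.4 CPM summed (in aged 3), T and NK cell markers 18.5 CPM with no Cd3e UMI, and stromal markers 14.9 CPM with no Col1a1 UMI. B cell markers summed to 4.96 to 57.5 CPM, led by Cd79b with Ms4a1 at 0. Ighm, the immunoglobulin heavy chain gene kept in the lymphoid list, was more widespread, with a UMI in 75% of the members of aged 3, 44.6% in aged 2, 34.7% in CASIN 3, 15.8% in CASIN 2, 13.3% in young 3 and at most 3.19% in the other libraries. In Vwf-negative cells of aged 3 it was 78.1%, and the part of free or B cell RNA in it was not tested. Red cell markers summed to 4.96 to 151 CPM, highest in young 2 and led by Hbb-bt. The 2 endothelial genes with the clearest signal, led by Pecam1, which stem cells also express, brought the sum of that list to between 37.0 and 59.7 CPM.

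Libraries differed in ways that touch every comparison. Young mice gave 10, 19 and 15 members, aged mice 217, 130 and 68, and CASIN-treated mice 94, 76 and 383. The young members together held 44 cells, so young values are the least certain. Summed over members, the libraries held 104343, 217831 and 162354 UMIs (young), 2454528, 1307243 and 604861 (aged) and 1334909, 774064 and 3319068 (CASIN). A count of 0 therefore allows up to 28.8, 13.8 and 18.5 CPM in the young libraries (3 UMIs, counting error only) but at most 4.96 CPM in the others. Median UMIs per member lay between 8199 and 13569.5. The median mitochondrial share of the members was 3.29 to 4.50% in batch 1 and 5.63 to 8.49% in batch 2. Immediate early genes moved with the batch as well, at medians of 24.2 to 59.8 UMIs per 10000 in batch 1 and 0 to 1.84 in batch 2. Among the 32387 barcodes, no pair of libraries shared more than 23 cell barcodes, and 1 member barcode occurred in 2 libraries.

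The limits of the rule cut through a continuous range. Of the 1012 members, 486 (48.0%) had a single Vwf UMI, 300 had 2 and 226 (22.3%) had 3 or more, up to 8 in a cell of aged 2. The member closest to the immediate early gene limit had 79.9 UMIs per 10000 and the nearest excluded cell 80.2, both in aged 1. The limit removed cells almost only in batch 1, 91 in aged 1, 87 in CASIN 1 and 54 in CASIN 2 against at most 2 in each of the other 6 libraries. The highest mitochondrial share of a member was 9.99% (CASIN 3), and the lowest of an otherwise fitting cell left out was 10.0% (aged 3).

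The share of members among LSK cells was far lower in young than in aged mice. In young mice, members made up 0.463%, 0.859% and 1.24% of LSK cells (mean 0.853% ± 0.387, SD, n = 3). In aged mice the shares were 13.8%, 7.69% and 3.84% (8.45% ± 5.04), and after CASIN 8.41%, 4.22% and 15.7% (9.44% ± 5.81). Each aged and each CASIN library lay above every young library, and the aged and CASIN ranges overlapped. The 95% Wilson score intervals of the single shares cover counting error only. They were widest in relative terms in the young libraries, from 0.252 to 0.851% in young 1. In aged 1 the interval was 12.2 to 15.6%.

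Aged exceeded young by 7.60 percentage points, by 13.2 in batch 1 and by 4.53 in batch 2. A two-sided exact permutation test over libraries gave p = 0.1, the smallest value that 3 against 3 libraries allow. CASIN exceeded young by 8.58 points (exact permutation p = 0.1). With a mitochondrial limit of 5% in place of 10%, these differences were 4.29 points for aged over young, of which batch 2 alone showed 0.214, and 4.23 points for CASIN over young. The lowest values with a library left out were 4.91 points without aged 1 and 5.46 points without CASIN 3. CASIN and aged differed by 0.986 points (exact permutation p = 0.7), with opposite signs in the batches: CASIN was lower by 7.52 points in batch 1 and higher by 9.93 points in batch 2. CASIN 3, whose members were the most numerous, carried the batch 2 difference, and without it the mean after CASIN was 2.14 points below the aged mean.

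**Figure D1:**
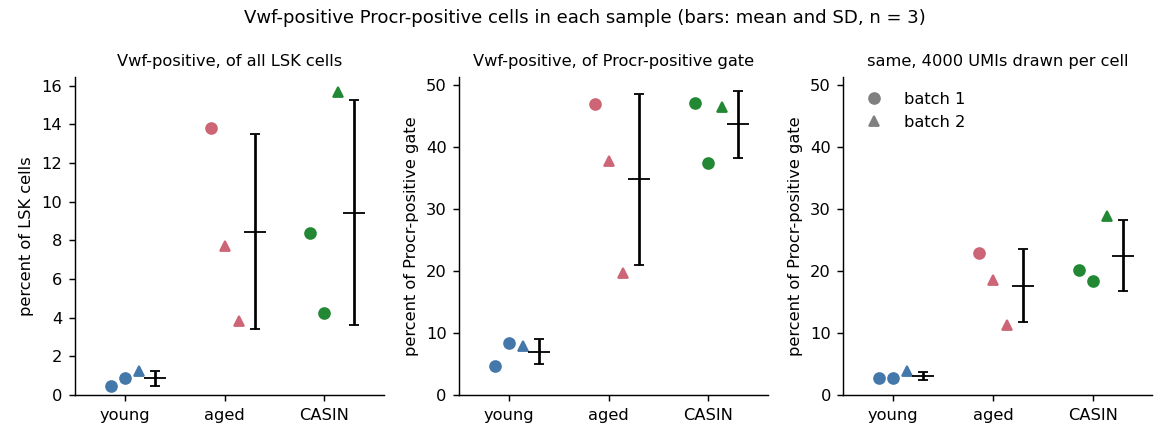
Share of Vwf-positive Procr-positive cells among LSK cells (left, %) and among all Procr-positive cells of the gate with all UMIs (middle, %) and with 4000 UMIs drawn per cell (right, %), with a point per library, batches by symbol, and bars for mean and SD (n = 3). The 3 young libraries lie at or below 1.24% on the left and at or below 8.33% in the middle, under every aged and CASIN library.

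The denominator of all LSK cells mixes the frequency of Procr-positive cells with the frequency of Vwf among them, so the second was also taken alone. Among members and Vwf-negative Procr-positive cells together, Vwf was detected in 4.67%, 8.33% and 7.89% of cells in young mice (6.97% ± 2.00). The values were 46.9%, 37.7% and 19.7% in aged mice (34.7% ± 13.8) and 47.0%, 37.4% and 46.5% after CASIN (43.6% ± 5.38). No aged or CASIN library overlapped the young range. The difference of aged over young was 27.8 points and that of CASIN over young 36.7 points (two-sided exact permutation p = 0.1 each, the smallest possible), while CASIN over aged was 8.91 points (p = 0.6, exact permutation), negative in batch 1 (-4.65) and positive in batch 2 (17.8). Without aged 3 the difference of CASIN over aged was 1.36 points, and with at least 2 Vwf UMIs required it was positive in batch 1 as well (2.51).

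The order of the groups was the same at equal depth. When each cell was thinned to 4000 UMIs, the shares were 3.07% ± 0.621, 17.6% ± 5.91 and 22.5% ± 5.66 in young, aged and CASIN. Free RNA in the droplets was gauged in cells positive for Flt3 and Dntt, lymphoid-primed progenitors that should lack Vwf. There a Vwf UMI was seen in 0.379%, 0.528% and 1.83% of cells in the young libraries, 4.26%, 4.49% and 0.935% in the aged and 2.18%, 2.31% and 3.59% after CASIN, at median depths of 12208.5 to 19653 UMIs. Other cells had more. Among all Flt3-positive cells, not all of which need lack Vwf, the share was 1.09 to 8.96%, highest in aged 1, at median depths of 10897 to 16588 UMIs. Elane marks granulocyte progenitors, and among the 17 to 39 Elane-positive cells of a library the share was 0 to 20%, with 4 of 20 cells in CASIN 1 and 3 of 21 in aged 1, at median depths of 1992 to 23800 UMIs. In each library the share in the Procr-positive gate was higher than in each of these 3 sets of cells. The mitochondrial limit bears on batch 2: with 5% in place of 10%, aged 2 kept 4 and aged 3 kept 6 members, and the aged over young difference in the Vwf-positive share fell to 15.8 points (exact permutation p = 0.2).

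The Vwf level of the whole Procr-positive gate, which does not depend on calling single cells positive, was also lowest in young mice. This level sums the same Vwf UMIs that set the Vwf-positive share. It therefore gives the difference in share on another scale and is not separate evidence for it. The level by library follows. Vwf was at 8.14, 12.4 and 15.0 CPM in young libraries, 76.4, 78.1 and 36.1 CPM in aged libraries and 83.0, 66.6 and 96.7 CPM after CASIN. All aged and CASIN values exceeded all young values. The log2 difference of aged over young was 2.48 (SE 0.315, edgeR adjusted p = 0.000449), 2.91 in batch 1 and 1.81 in batch 2. In this gate 5.01% of 10715 tested genes were higher in aged than in young. CASIN over young gave 2.86 (SE 0.308, edgeR adjusted p = 8.22e-05), where 6.65% of genes were higher. CASIN over aged gave 0.38 (SE 0.236, edgeR adjusted p = 0.9996), with -0.0637 in batch 1 and 0.86 in batch 2. In this comparison 0.0% of genes were higher and 423 had an unadjusted p below 0.05 (DESeq2 called 0, with 156). Vwf helped to choose the members, so within the members its level, with group means of 185, 183 and 183 CPM, only describes the choice.

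Members were then compared with Vwf-negative Procr-positive cells of the same libraries, a contrast within each library that batch and sex do not confound. The rule used Vwf for this split, and the other genes were not used for it. Jam2, Clu, Ramp2 and Cavin2 were among the genes higher in members, and 9 of 12 lymphoid and 8 of 11 myeloid genes tested were lower. Of 10511 genes tested, 909 (8.65%) were higher and 853 (8.12%) lower in members at an edgeR adjusted p below 0.05, and 661 of these 1762 differed in the same direction in all 9 libraries. The count was 1190 with DESeq2 (635 higher, 555 lower), 621 with a mitochondrial limit of 5% and 494 with 4000 UMIs per cell (176 higher, 318 lower). It was 467 in batch 1 alone (195 higher, 272 lower) and 1749 in batch 2 alone (876 higher, 873 lower). Neither the number nor the balance of directions was stable across these settings. Median depth was 8199 to 13569.5 UMIs in members and 8369.5 to 12116.5 in Vwf-negative cells. Within libraries it differed in both directions. Members were shallower in young 1, where the gap was largest (8934 against 12116.5 UMIs), and deeper in CASIN 1 (13569.5 against 11941 UMIs). The median mitochondrial share was higher in members in every library. The gap was smallest in aged 1 (3.72 against 3.57%) and largest in young 1 (4.50 against 3.08%). Its part in the class differences was not tested beyond the limit of 5%.

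Jam2, a junctional adhesion molecule, was among the clearest of the higher genes. In members Jam2 stood at 38.3, 36.7 and 117 CPM (young), 72.5, 197 and 223 CPM (aged) and 53.9, 76.2 and 231 CPM (CASIN). In Vwf-negative cells of the same libraries it stood at 4.62, 7.65 and 20.8, at 36.7, 52.1 and 42.1, and at 37.8, 33.5 and 103 CPM. Members were higher in 9 of 9 libraries, and the batch 2 libraries were the highest in each group. The log2 difference was 1.51 (SE 0.132, edgeR adjusted p = 2.09e-11).

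Clu, which encodes the secreted chaperone clusterin found in platelet granules, averaged 129 CPM in members against 32.6 CPM in Vwf-negative cells (log2 difference 1.86, SE 0.174). Ramp2, the subunit that turns the calcitonin receptor-like receptor into an adrenomedullin receptor, averaged 132 against 37.3 CPM. Cavin2, a coat protein of caveolae, averaged 108 against 37.3 CPM. These 3 genes were higher in members in all 9 libraries, with edgeR adjusted p of at most 1.69e-07. Ehd3, an endocytic recycling ATPase, averaged 52.3 against 17.9 CPM, Clca3a1 90.1 against 33.6 CPM, Tm4sf1, a tetraspanin-like membrane protein of endothelium, 251 against 71.9 CPM, and Neo1, the receptor neogenin, 41.7 against 9.89 CPM. Gja1, the gap junction protein connexin 43, averaged 51.3 against 16.8 CPM but in batch 1 alone had an adjusted p of 0.508. Gkn3 had the largest fitted difference by the naming rule (log2 2.56), yet its mean of 48.6 against 3.62 CPM rests on young 1 at 316 CPM, where no other library exceeded 28.9 CPM in members. Apoe, the lipid carrier apolipoprotein E, was chosen after its values were seen: members averaged 1290 CPM against 517 CPM, with members higher in all 9 libraries.

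The platelet and megakaryocyte genes were split. Of 22 tested, 11 were higher and 2 lower in members, with a median log2 difference of 0.34 where all tested genes had -0.01. Selp, the adhesion receptor P-selectin of platelet granules, was at 201, 32.1 and 67.8 CPM in young members, 149, 249 and 238 in aged and 117, 130.5 and 234 after CASIN. It averaged 158 against 69.5 CPM (log2 1.03, edgeR adjusted p = 7.58e-08), and the granule protein gene Mmrn1 averaged 148 against 66.5 CPM. Both were higher in members in 9 of 9 libraries. Pf4, platelet factor 4, was lower in members at 21.3 against 38.5 CPM, and Itga2b, the CD41 integrin chain, was higher by a log2 difference of only 0.34 in 6 of 9 libraries. Plek, a platelet signalling protein, was also lower. The levels of the whole list summed to more in members than in Vwf-negative cells in 9 of 9 libraries.

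Of 29 stem cell genes, 19 were higher and 2 lower in members, with a median of 0.48. Mecom, Fgd5, Slamf1, which encodes the stem cell surface receptor CD150, Hoxb5 and Sult1a1 were among the higher genes. The transcription factor genes Hlf (log2 -0.45) and Hoxa9 (-0.32) were lower. A list of genes known to rise in stem cells with age had 30 of 31 tested members higher and none lower (median 1.18). It was chosen with results of these data known and holds genes found in Vwf-positive cells, so it is not independent of them.

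**Figure D2:**
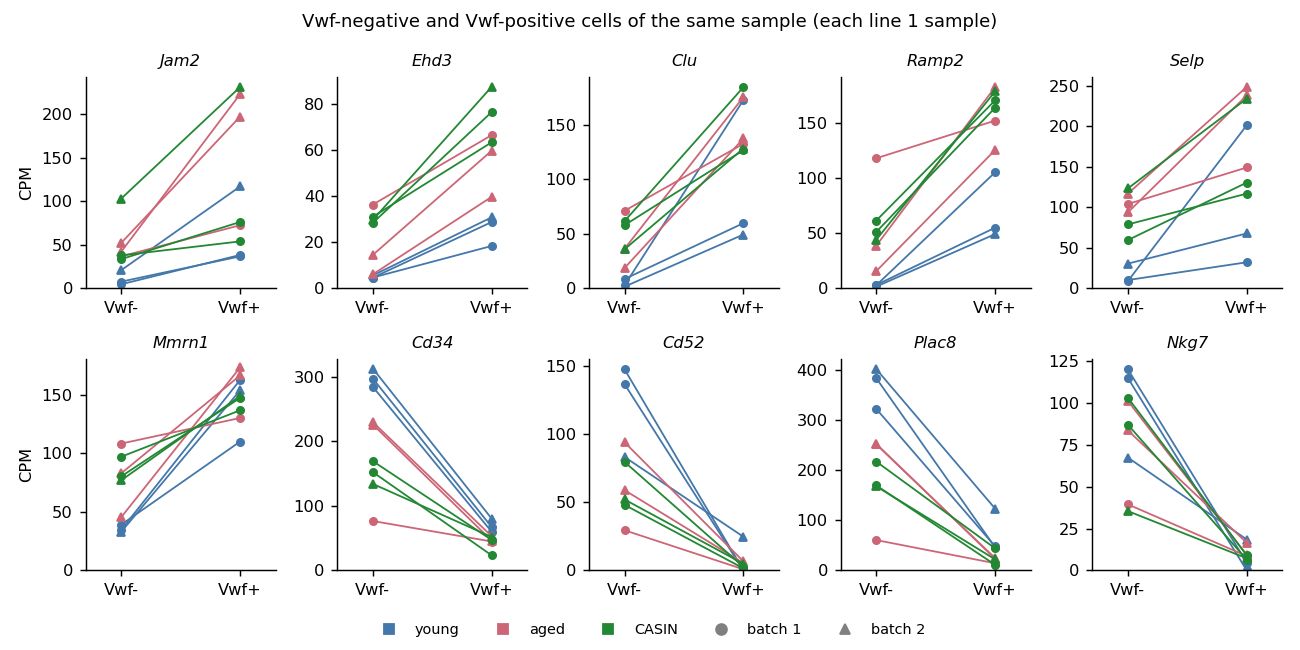
CPM of selected genes in Vwf-negative and Vwf-positive Procr-positive cells, with a line per library joining its 2 values (linear axis from 0), coloured by group with batches by symbol. Jam2, Clu, Ramp2 and Selp rise along every line, and Cd34, Cd52 and Plac8 fall along every line.

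Among the lower genes were most of the tested lymphoid (9 of 12) and myeloid (8 of 11) genes. Cd34, a sialomucin that marks progenitors and short-term stem cells in mice, was at 67.1, 59.7 and 80.1 CPM in young members, 44.8, 45.9 and 52.9 in aged and 47.2, 23.3 and 51.8 after CASIN. In Vwf-negative cells it was at 298, 285 and 313, at 76.6, 226 and 230, and at 169, 153 and 134 CPM. Members were lower in 9 of 9 libraries, and aged 1 had the smallest gap. The log2 difference was -1.76 (SE 0.119, edgeR adjusted p = 2.71e-14).

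Cd48, a receptor of progenitors that long-term stem cells lack, was at 0 in 5 of the 9 libraries in members and averaged 0.772 against 22.8 CPM. Plac8 averaged 39.6 against 247 CPM, Cd52, a lymphoid surface peptide, 5.15 against 81.0 CPM, and Nkg7 8.89 against 83.7 CPM. Mpo, the granule enzyme myeloperoxidase, averaged 5.19 against 29.0 CPM. Tespa1, Tyrobp, Lat2 and Wfdc17 were also among the lower genes chosen by the same rule, and each of these was lower in all 9 libraries. Of 12 lymphoid genes tested, 9 were lower and 1 (Notch1) higher. Of 11 myeloid genes, 8 were lower and none higher, with a median of -1.84. Of 18 cell cycle genes, 13 were lower and none higher (median -0.74), although only Mki67 had been used in the rule. Cdk6, a kinase that drives exit from quiescence, averaged 71.7 against 177 CPM.

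Other lists showed smaller or mixed differences. For scale, 8.65% of all 10511 tested genes were higher in members and 8.12% lower. Of 21 niche adhesion genes, 9 were higher (among them Itga6, Jam2 and Esam) and 6 lower (among them Itga9 and Cd44). Of 26 genes for Cdc42 and its regulators and effectors, 6 were higher and 6 lower, with a median of -0.03. Cdc42 itself averaged 339 against 385 CPM (edgeR adjusted p = 0.0647). Of 26 immediate early genes outside the rule, 9 were higher and 1 lower, and of 13 heat shock genes 5 were lower.

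The number of Vwf UMIs per cell gave a graded view within the 6 aged and CASIN libraries. Cells were grouped by 0, 1, 2 and at least 3 Vwf UMIs, and the means below are over these libraries. Apoe averaged 635, 1355, 1440 and 1506 CPM along these groups, Jam2 50.9, 116, 160 and 184 CPM, and Ehd3 24.3, 56.9, 65.8 and 79.9 CPM. The largest step lay between 0 and 1 UMI for Apoe and Ehd3, and Jam2 was higher at 3 or more than at 1 UMI in 6 of 6 libraries. Cd52 averaged 60.3, 4.70, 4.99 and 0.210 CPM, and Cd34 165, 48.4, 36.3 and 43.8 CPM. Both fell from 0 to 1 UMI in 6 of 6 libraries. Selp (96.0, 181, 202 and 182 CPM) and Cdk6 (177, 87.7, 71.5 and 90.6 CPM) changed between 0 and 1 UMI and showed no further order. Procr, a gene of the rule, averaged 235, 256, 291 and 232 CPM. The 4 groups held 1413, 463, 291 and 214 cells, and their median depths, taken as the median over libraries, rose from 8875 to 10037 UMIs, so deeper cells were more frequent among those with more Vwf UMIs.

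**Figure D3:**
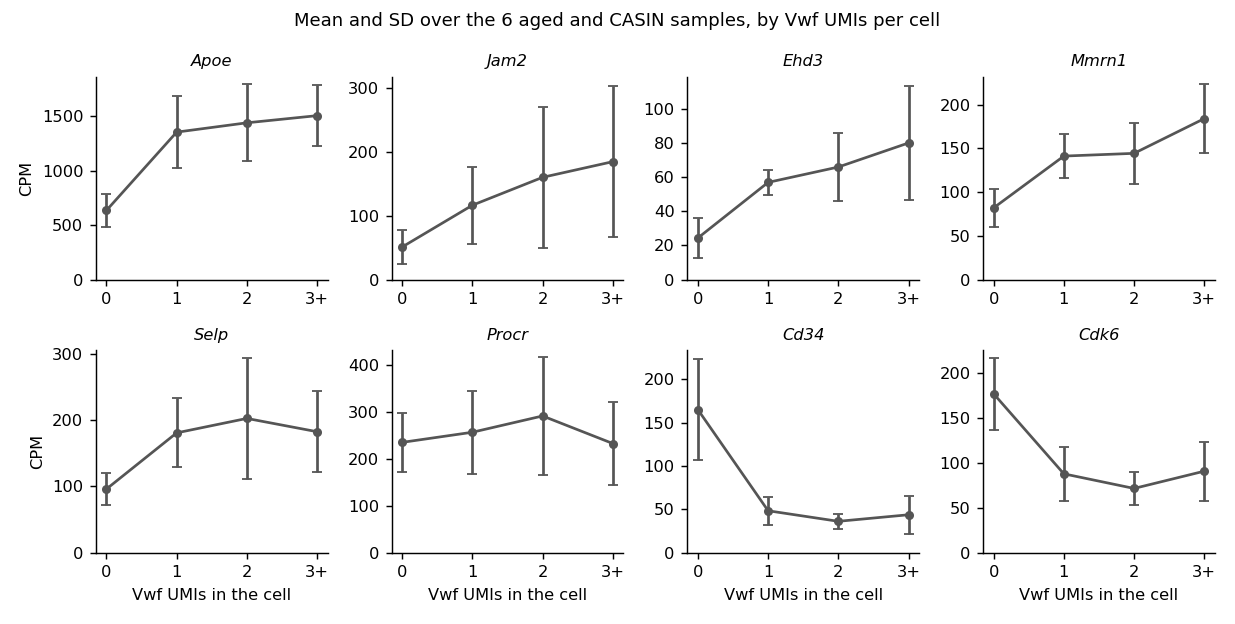
Mean CPM of selected genes in Procr-positive cells with 0, 1, 2 and at least 3 Vwf UMIs, on a linear axis from 0, with error bars for the SD over the 6 aged and CASIN libraries. The step from 0 to 1 UMI is the largest for Apoe, Selp, Cd34 and Cdk6, and Jam2 continues upward from 116 CPM at 1 UMI to 184 CPM at 3 or more.

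Age was examined within the members next. In aged members, 10 of 29 tested genes of a stem cell ageing list, among them the metallothionein genes Mt1 and Mt2, were higher than in young members, and 7 genes, among them Plac8 and Lst1, were lower. Of 8010 genes tested with a batch term, 30 (0.375%) were higher and 7 (0.0874%) lower at an edgeR adjusted p below 0.05, and 35 of these 37 had the same direction in both batches. Without the batch term no gene passed, with 181 genes at an unadjusted p below 0.05 against 551 with it. Without young 2 the count was 15, without young 3 it was 22, and without aged 1 it was 16. DESeq2 called 26 genes, 23 of them shared. Comparisons of aged and of CASIN with young used the same young libraries, so their values are given side by side.

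Mt1 and Mt2, small proteins that bind zinc and copper and are induced by metals and glucocorticoids, lie next to each other on chromosome 8. Their promoters are shown because both genes rose and because metal response elements, the sites of the metal-sensing factor Mtf1, are known there. The 300 bases from 250 before to 50 after each start are from RefSeq on GRCm38.p6, given 5′ to 3′ on the + strand, Mt1 at chr8:94178839-94179138 and Mt2 at chr8:94172368-94172667. Capitals mark each match, on either strand, to the core TGCACNC or TGCGCNC, 2 forms that differ at a single base and cannot match at the same place.
Mt1: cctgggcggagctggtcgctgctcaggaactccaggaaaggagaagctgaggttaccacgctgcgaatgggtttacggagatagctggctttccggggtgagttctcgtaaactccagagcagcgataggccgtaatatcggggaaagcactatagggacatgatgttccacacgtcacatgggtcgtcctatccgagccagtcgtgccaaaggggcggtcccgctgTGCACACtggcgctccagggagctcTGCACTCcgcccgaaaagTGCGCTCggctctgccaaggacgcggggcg
Mt2: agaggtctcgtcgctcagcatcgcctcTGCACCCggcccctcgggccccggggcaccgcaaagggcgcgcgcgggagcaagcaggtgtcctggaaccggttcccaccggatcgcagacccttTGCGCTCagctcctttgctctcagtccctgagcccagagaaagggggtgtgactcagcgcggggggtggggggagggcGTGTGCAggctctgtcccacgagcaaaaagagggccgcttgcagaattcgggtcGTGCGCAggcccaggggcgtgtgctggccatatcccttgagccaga
The Mt1 promoter held 3 matches and the Mt2 promoter 4. At least 1 match occurred in 25.7% of 32851 promoters, at least 3 in 1.97% and at least 4 in 0.517%. Of the 6377 tested genes with a promoter in the table, 37.3% had at least 1 match, 3.7% at least 3 and 0.972% at least 4. Among the 22 genes higher in aged members with a promoter, 10 (45.5%) had at least 1 match, 3 (13.6%) at least 3 and 1 (4.55%) at least 4. Mt1 and Mt2 themselves are among these genes. A match describes letters in this window and no binding was measured.

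In members Mt1 was at 57.5, 59.7 and 67.8 CPM in young mice, 367, 201 and 122 CPM in aged mice and 509, 462 and 158 CPM after CASIN. The young values lay close together and below all others, and batch 1 was higher than batch 2 among aged and CASIN libraries. The log2 difference of aged over young was 2.38 (SE 0.299, edgeR adjusted p = 2.61e-05), and that of CASIN over young 2.58 (SE 0.286, edgeR adjusted p = 1.80e-06). In batch 2 alone the aged over young difference was 1.38 and missed the threshold (edgeR adjusted p = 0.137). Mt2 was at 0, 0 and 6.16 CPM in young, 85.1, 34.4 and 43.0 in aged and 115, 106 and 45.5 after CASIN. With 1 UMI in all young members together, the ratio of pooled UMIs was 31.1 (exact 95% interval 5.53 to 1231, counting error only).

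Nupr1, a stress-response chromatin protein, was at 230, 110 and 222 CPM in young members, 566, 476 and 582 in aged and 399, 518 and 641 after CASIN. No aged or CASIN library fell into the young range. The difference of aged over young was 1.64 (SE 0.219, edgeR adjusted p = 3.97e-05), 1.90 in batch 1 and 1.35 in batch 2.

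Sbspon, a secreted matrix protein gene, was at 9.58, 0 and 6.16 CPM in young, 98.2, 86.4 and 57.9 in aged and 90.6 CPM in CASIN 1 and 62.7 CPM in CASIN 3, with CASIN 2 slightly above CASIN 1. Its 2 young UMIs gave a ratio of 21.6 (exact 95% interval 5.94 to 179). Gpr183, an oxysterol receptor that guides immune cell migration, was at 0, 9.18 and 0 CPM in young, 152, 19.9 and 13.2 in aged and 121, 151 and 32.5 after CASIN. Aged 1 was several times the other aged libraries, and aged 2 and aged 3 lay below the 28.8 CPM that a count of 0 allows in young 1. Rorb (ratio 16.1, interval 2.84 to 639.8) and the matrix protein gene Matn4 (ratio 7.80, interval 2.63 to 38.2) rested on 1 and 3 young UMIs.

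Plscr2, a phospholipid scramblase, was at 9.58, 36.7 and 6.16 CPM in young, 82.3, 57.4 and 82.7 in aged and 96.6, 84.0 and 91.3 after CASIN. The groups did not overlap (aged over young log2 1.95, edgeR adjusted p = 0.0178). Gem, which encodes a small GTPase, and Sgk1, a glucocorticoid-induced kinase, also passed the test (log2 2.38 and 2.09), but in each an aged library in batch 2 overlapped the young range. Alcam, an adhesion molecule, Fyb, a platelet and T cell adaptor, and Ramp2 were named after their values were seen. They rose by log2 1.45, 1.66 and 1.34, with no overlap between aged and young libraries.

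Among the lower genes, Plac8 was at 47.9, 45.9 and 123 CPM in young members, 14.3, 24.5 and 23.1 in aged and 11.2, 43.9 and 22.0 after CASIN. Aged and young did not overlap (log2 -1.91, edgeR adjusted p = 0.0291). Lst1, a myeloid and lymphoid transcript, was at 307, 312 and 61.6 CPM in young, 93.3, 42.1 and 46.3 in aged and 102, 69.8 and 51.5 after CASIN. Young 3 was lower than aged 1, so the groups overlapped (log2 -1.46, edgeR adjusted p = 0.0015). Serpina3g, a protease inhibitor, fell by 1.55 on the log2 scale and Lsp1, a leukocyte actin-binding protein gene, from 114 to 62.8 CPM on average, both with overlapping groups. Gm47283 fell by 1.04. It is annotated on the Y chromosome but had UMIs in all 9 libraries, also in those without Ddx3y, so its reads may come from a copy elsewhere and its identity is uncertain.

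**Figure D4:**
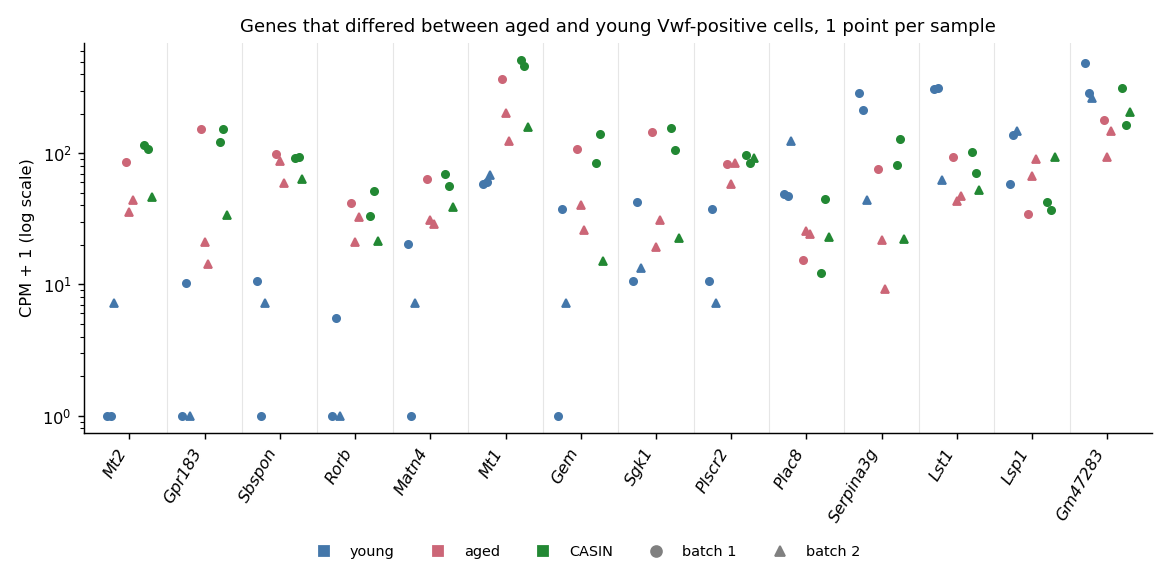
CPM in Vwf-positive Procr-positive cells of genes that differed between aged and young, with a point per library, on a log axis of CPM + 1, groups by colour and batches by symbol. Mt1, Sbspon and Plscr2 lie higher in all 6 aged and CASIN libraries than in the 3 young libraries, and Plac8 lies lower.

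The fixed lists put these genes in context. Of 29 tested genes of the stem cell ageing list, 10 were higher in aged members and none lower, with a median log2 difference of 1.45 against 0.05 over all tested genes, and all 29 differences were positive. For CASIN over young, 12 of 29 were higher with a median of 1.62 against 0.04. The list was chosen with ageing results known, so these counts describe the list and do not stand as separate evidence. None of 28 stem cell genes, 10 cell cycle genes, 20 endoplasmic reticulum folding genes, 15 type I interferon genes, 18 TGF-beta genes or 24 genes for Cdc42 and its partners passed the test. Among 19 platelet and megakaryocyte genes only Fyb passed (median 0.31). Of 5 myeloid genes, Prtn3 was higher and Plac8 lower, and none of 6 lymphoid genes passed. Over all 8010 tested genes 0.375% were higher and 0.0874% lower, so lists of this size would hold few calls at that rate. In simulated data with a log2 change of 1, the aged over young test recovered 22.6% of the changed genes. A list without a call therefore does not show equal levels.

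Immediate early and stress genes need the batch beside them. Of 25 immediate early genes outside the rule, Junb, Jund, Ier2, Nr4a1 and Nr4a2 were higher in aged members (median of the list 0.64), while none passed for CASIN over young (median 0.41). Junb was at 690, 1047 and 209 CPM in young, 1593, 899 and 450 in aged and 1402, 1504 and 382 after CASIN. Values in batch 2 were the lowest of each group, and aged and young overlapped. The genes Fos, Fosb, Jun and Egr1 set a limit in the rule, and their part in the differences of related genes was not tested. Dnajb1, a co-chaperone of Hsp70, was higher in aged members by 1.48 (edgeR adjusted p = 0.0088) with overlapping groups, and was the only one of 12 heat shock genes to pass. Hspa5, the folding chaperone BiP, was at 1236, 280.0 and 1189 CPM in young, 365, 1534 and 2154 in aged and 359, 189 and 1402 after CASIN. It differed more by batch than by group, and young 1 was unlike the other batch 1 libraries (aged over young -0.12, SE 0.306). Edem2, a lectin of the same folding system, differed by 0.53 (edgeR adjusted p = 0.875).

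CASIN over young gave 25 genes higher (0.312%) and 3 lower (0.0375%), 27 of 28 with the same direction in both batches. Without young 2 the count was 16. It was 0 without the batch term, 8 after thinning and 9 with a mitochondrial limit of 5%. Cldn5, a tight junction protein gene of endothelium, passed at 2.33 (edgeR adjusted p = 0.000397) and also for aged over young at 1.79 (edgeR adjusted p = 0.0192). Its values were 38.3, 45.9 and 0 CPM in young, 149.5, 3.06 and 0 CPM in aged and 189, 221 and 7.23 CPM after CASIN. Nearly all of its RNA was in batch 1. Zg16 had no UMI in young members and 84 in CASIN members, at least 2.5-fold higher when the floor of 3 UMIs was set over the young group. Clca3a1 (1.41) and Ehd3 (1.71) were named after their values were seen and were higher in CASIN than in young members without overlap.

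Few genes separated CASIN from aged members. Of 8010 genes, none was higher (0.0%) and 1 was lower (0.0125%) after CASIN, with 253 at an unadjusted p below 0.05. DESeq2 called 0, with 61 at an unadjusted p below 0.05. The count was 3 without aged 1, 9 without aged 3, and 0 without aged 2 or without CASIN 3. The gene was Zdbf2, a zinc finger gene of an imprinted region, at 0, 0 and 37.0 CPM in young members, 2.85, 130 and 126 in aged and 0.749, 0 and 50.3 after CASIN. High values were confined to batch 2 libraries, and aged and CASIN overlapped. The log2 difference was -1.38 (SE 0.215, edgeR adjusted p = 0.00231, and 0.176 with DESeq2). Without CASIN 3, the only CASIN library of batch 2, the adjusted p was 1, and without aged 2 it was 0.0548.

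The next genes by p did not pass: Slc15a2 (1.72) and Lpar6 (0.87) had higher and Nt5dc2 (-2.05) and D10Wsu102e (-0.90) lower fitted values after CASIN, with edgeR adjusted p of 0.378 to 0.385. Cdc42, whose protein CASIN inhibits, was at 316, 308 and 246 CPM in young, 382, 358 and 364 in aged and 335, 403 and 337 after CASIN. Its young values lay below all others, yet aged over young (0.47, SE 0.176, edgeR adjusted p = 0.479) missed the threshold, and CASIN over aged was -0.10 (SE 0.138, edgeR adjusted p = 0.999). No list had a gene called. The stem cell ageing list had a median of 0.08, the platelet list -0.08, the immediate early list -0.17 and all tested genes -0.01. Mt1 (0.19, SE 0.171), Nupr1 (-0.01, SE 0.156), Plscr2 (0.28, SE 0.174) and Sbspon (-0.19, SE 0.168) stayed within 2 standard errors of 0. A p that misses the threshold does not show equal levels.

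The change with age was compared between members and Vwf-negative cells in a single model, with a term for the difference of the differences. Of 10511 genes, 6 (0.0571%) had a higher and 31 (0.295%) a lower fitted log2 change in members. Lower can mean a smaller rise in members, a deeper fall or opposite directions in the 2 classes. The count was 7 without young 1, of which 5 were shared, 21 without young 2, 14 without aged 1 and 53 without young 3. When all cells were thinned to 4000 UMIs, 128 genes were called, 124 higher and 4 lower, with 3 shared with the 37. Thinning also changed which cells met the rule. The young libraries then held 5.8, 5.6 and 6.6 members (means over 5 draws) in place of 10, 19 and 15. The median over all tested genes was then 0.50, against 0.09 with all UMIs, so thinned values are to be read against that shift. The count as a whole is not stable. DESeq2 called 8.

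Ramp2 kept its call in each of the 9 fits that left out a library. In Vwf-negative cells Ramp2 was at 2.69, 2.97 and 1.52 CPM in young, 118, 38.6 and 15.5 in aged and 61.5, 51.1 and 44.0 after CASIN, while in members it was at 105, 55.1 and 49.3, at 152, 183 and 126, and at 171, 164 and 179 CPM. The young Vwf-negative libraries were lower than all others, whereas young members were already above or within the range of old Vwf-negative cells. The difference of the 2 age changes was -3.64 (SE 0.502, edgeR adjusted p = 5.99e-08), -2.46 to -3.90 over the fits without a library, and -0.63 after thinning (edgeR adjusted p = 0.874).

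Clu had a similar course, at 2.69, 8.50 and 1.52 CPM in young Vwf-negative cells, 71.0, 36.2 and 18.6 in aged and 61.5, 57.8 and 35.7 after CASIN (difference of changes -2.82, SE 0.428). Its call held in 8 of the 9 fits, was lost without young 1 (edgeR adjusted p = 0.287) and held after thinning. Tm4sf1 (-2.33) and Clca3a1 (-2.92) held in 8 of 9 fits, and Cavin2 (-2.54), Cldn5 (-3.67) and Gkn3 (-5.75) in 7 of 9. The call was lost without young 1 for Clca3a1 (-2.19), Cavin2 (-1.43) and Gkn3 (-1.77), and without aged 1 for Cavin2 (-1.31), Cldn5 (-3.54) and Gkn3 (-3.76). It was also lost without young 2 for Cldn5 (-2.65) and without young 3 for Tm4sf1 (-3.48). After thinning none of these 5 genes passed, at -1.02 for Tm4sf1, -1.67 for Clca3a1, -0.81 for Cavin2, -1.69 for Cldn5 and -1.10 for Gkn3 (edgeR adjusted p of 0.4996 to 0.839), and DESeq2 did not call Cavin2 or Gkn3 with all UMIs. Of the 31 tested genes of the stem cell ageing list, 8 had a lower change in members and none a higher one, with a median of -0.98 against 0.09 over all genes. Of these 8 genes only Cldn5 kept its call without young 1, Clca3a1 and Clu without aged 1, and Clu and Sult1a1 after thinning. Without young 2, Cavin2, Clca3a1, Clu and Sult1a1 kept it, and DESeq2 called Clca3a1, Cldn5 and Clu. The summed level of that list was 918 to 1735 CPM in young members and 192 to 285 CPM in young Vwf-negative cells, against 2316 to 3402 and 780 to 2181 CPM in the 6 aged and CASIN libraries. Young members thus lay between young Vwf-negative cells and aged members. Mt1 rose in both classes, and the difference of its changes was -1.12 (SE 0.385, edgeR adjusted p = 0.342).

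**Figure D5:**
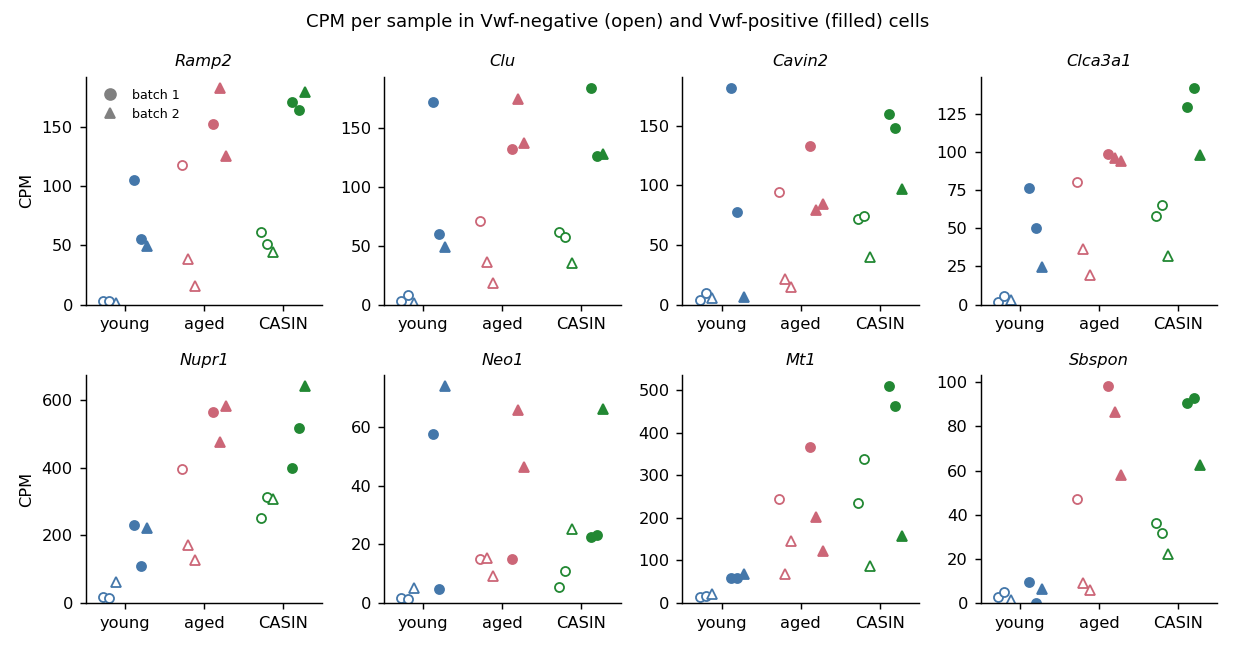
CPM of selected ageing genes in Vwf-negative and Vwf-positive Procr-positive cells of young, aged and CASIN mice, with open and filled points per library on a linear axis from 0 and batches by symbol. Ramp2 and Clu are at or below 8.50 CPM in the 3 young Vwf-negative libraries and at 15.5 CPM or more in all other groups, whereas young Vwf-positive cells already lie at 49.3 CPM or more.

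For CASIN over aged, 3 genes had a higher (0.0285%) and 3 a lower (0.0285%) fitted log2 change in members than in Vwf-negative cells, and DESeq2 called 0 (39 genes at an unadjusted p below 0.05, against 348 in edgeR). Among the higher ones, Exosc2 (1.47) held its call in 7 of the 9 fits without a library, at 1.04 to 1.75. After thinning it was 0.26 and was not called. The other higher ones were the immunoglobulin genes Ighm (2.33) and Igkc (2.19). The Vwf-negative cells of aged 3 held 7129 CPM of Igkc against at most 183 CPM in the other libraries. Both genes lost their call without aged 3 (-0.0552 and 0.14) and without CASIN 3 (2.54 and 0.21). Igkc also lost it without young 1 (2.23, edgeR adjusted p = 0.0564). The neutrophil genes S100a8 (-4.51) and S100a9 (-4.27) were among the lower ones, and S100a8 was at 77.1 CPM in the Vwf-negative cells of CASIN 3. Both lost their call without aged 3 (-4.45 and -3.18). Without CASIN 3, S100a9 lost its call as well (1.61), and S100a8 was not among the genes tested. In Vwf-negative cells the neutrophil markers summed to 334 CPM in CASIN 3 and to at most 18.6 CPM in any other library. The chemokine gene Cxcl2 (-4.23) was -4.76 without CASIN 3 but -0.55 without aged 1 and -2.75 without CASIN 1, and lost its call in both of these fits. Without aged 3 the count was 2, and without aged 1 it was 16. The part of free or foreign RNA in these differences was not tested.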

How the data were processed

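Cells of the 9 libraries were read from the deposited counts, filtered UMI counts per gene and barcode for 31053 genes. According to the methods of the study the authors made these counts with Cell Ranger 3.1.0 on mm10, and the libraries were 3′ libraries, so levels are not per length and are compared only within a gene. Quality limits were 1000 to 40000 UMIs, at most 6000 genes and at most 10% mitochondrial UMIs. Members and gene lists were chosen with earlier results of these data known.

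UMIs of members, of Vwf-negative cells and of the whole gate were summed per library and fitted with edgeR 4.0.16 (TMM, filterByExpr, quasi-likelihood test, group and batch terms, Benjamini-Hochberg adjustment over all tested genes). The class comparison used a term per library. The test of the difference of changes added class by batch and class by group terms. The genes of the rule were left out of the tests, except that Vwf was tested over the whole gate, which its UMIs do not define. Shares were compared by exact permutation. The total UMIs per library were 19237354 to 42780953. Levels are means of CPM over libraries. Doublets were marked at a fixed rate of 0.8% per 1000 barcodes, 20 of them members, and kept. Scripts were tested on simulated data.

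Named genes were up to 10 with the largest change in each direction among those past the threshold, at 20 CPM or more in a group and with the same direction in both batches (all 9 libraries for the class comparison), the 5 with the lowest p where fewer than 5 passed, and the 4 most abundant of each list. The batches fitted alone were chosen after seeing the data. DESeq2 1.42.0, run in R 4.3.3, was an alternative. Some genes that the rule selected are not reported here.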

Additional observations from a re-analysis of the deposited data

Results flagged for a closer look

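The number of genes whose change with age differed between Vwf-positive and Vwf-negative Procr-positive cells, 37, was picked out because it is a tested difference between classes. The genes named above that were in it include Gkn3 (-5.75), Cldn5 (-3.67), Ramp2 (-3.64), Clca3a1 (-2.92), Clu (-2.82), Cavin2 (-2.54), Neo1 (-2.45), Tm4sf1 (-2.33), Slamf1 (-2.21), Sult1a1 (-2.19), Hbb-bt (-1.40), Selp (-1.37), Nupr1 (-1.19), Lst1 (-1.19), Serpina3g (-1.15), Mmrn1 (-1.08), Apoe (-0.73), Nr4a2 (-0.963) and Nr4a1 (-0.957), each value being the log2 change of aged over young in Vwf-positive minus that in Vwf-negative cells. The count was 7 without young 1, 21 without young 2 and 14 without aged 1. None of the 6 genes with a higher change in members was named above. Of these, Rgs1 (1.34) held its call in 8 of the 9 fits that left out a library. It lost the call without young 3 (0.82) and after thinning (1.15).

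The corresponding count for CASIN over aged was 6, picked out for the same reason. It was 2 without aged 3 and 16 without aged 1.

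Cells that met every gene criterion but exceeded the mitochondrial limit lay outside the comparisons. There were 334 in aged 2, 90 in aged 3 and 273 in CASIN 3, all of batch 2, against 11 in young 3 and at most 8 in each library of batch 1. The part of these cells in the differences between groups was not tested beyond the other mitochondrial limits.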

How the results depend on the processing

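The number of genes that differed between aged and young members was 62 without a filter on low counts, 0 without the batch term, 9 with these groups alone, 17 after thinning and 15 with a mitochondrial limit of 5%, and 15 to 54 when a library was left out. For CASIN over young it was 78, 0, 43, 8 and 9 under these settings, 46 without the immediate early gene limit, and 16 to 40 when a library was left out. For CASIN over aged it was 0 with DESeq2, without the batch term and with the 5% limit, 6 without the filter, 4 and 7 in batch 1 and batch 2 alone, and 0 to 9 when a library was left out. The class comparison gave 494 genes after thinning (176 higher, 318 lower), 621 with the 5% limit, 467 in batch 1 alone, 1749 in batch 2 alone, and 1179 to 1875 when a library was left out. The difference of age changes gave 8 with DESeq2, 16 without class by batch terms, 128 after thinning and 7 to 53 when a library was left out. That of CASIN changes gave 0 with DESeq2 and after thinning and 2 to 16 when a library was left out. The causes of these shifts were not tested.

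The Vwf level of the gate kept its call for aged over young except without the batch term (log2 2.45), and its range was 2.05 to 2.73 when a library was left out. For CASIN over aged it was -0.0352 in batch 1 alone. The CASIN minus aged share of LSK cells was -0.0588 points with a mitochondrial limit of 5%, -0.429 with 20%, -1.32 without aged 3 and -2.14 without CASIN 3, within -2.14 to 3.68 when a library was left out. After batch and group means were removed, correlations of same-numbered libraries were -0.86 to 0.31. Young 3 and aged 1, which do not share a number, reached 0.88. With 3 libraries per group, removing these means itself forces correlations. The values therefore cannot show whether the replicate numbers pair the libraries. With a replicate block the counts were 39 for aged over young, 5 for CASIN over aged and 53 for CASIN over young.

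Among single genes, 4451 of the values under an alternative kept direction and call, 1095 lost the call and 30 reversed. Hspa5 for aged over young was 0.68 without the batch term, 0.61 without young 1, 0.13 without aged 1 and 0.72 in batch 2 alone, and -0.79 to 0.61 when a library was left out. Edem2 for aged over young was -0.0554 in batch 1 alone and -0.0288 (without young 3) to 1.93 when a library was left out. For CASIN over aged, Edem2 was -0.0498 with DESeq2, -0.0730 without the batch term, -0.0900 with the 5% limit, -0.0029 without the immediate early gene limit, -0.0303 in batch 2 alone and -0.15 to 0.17 when a library was left out, and Dnajb1 was 0.12 without the batch term. Cited4 was -2.84 to 6.51 (aged over young) and -2.86 to 6.48 (CASIN over young) when a library was left out, positive without young 3, the only young library with UMIs of it. In the class comparison Tal1 (-0.0120) and Jam3 (-0.0549) reversed after thinning, Itgb1 (-0.000843) with the 5% limit, and Cebpb (-0.0473), Hspa1a (1.12) and Cxcr4 (0.28) in batch 1 alone. In the difference of age changes Nr4a1 (0.82) and Hbb-bt (0.98) changed sign after thinning, where the median over all tested genes rose from 0.09 to 0.50. In that of CASIN changes Igkc (-0.23) reversed after thinning, Ighm without aged 3 (-0.0552 to 3.53 when a library was left out) and S100a9 without CASIN 3 (-4.54 to 1.61). With 10 to 19 members in each young library, gene comparisons with young members rest on few UMIs.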

Other observations

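A barcode over the mitochondrial limit was more frequent in batch 2, at 59.1% in young 3, 66.8% in aged 2, 65.7% in aged 3 and 62.0% in CASIN 3, than in batch 1, where CASIN 1 had the highest share at 40.6%.

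Tmsb10, an actin-binding peptide gene, and Ctla2a, a protease inhibitor gene, were followed along the number of Vwf UMIs as genes chosen after their values were seen. Tmsb10 averaged 828, 359, 292 and 305 CPM in cells with 0, 1, 2 and at least 3 Vwf UMIs in the 6 aged and CASIN libraries. Ctla2a averaged 3184, 1701, 1398 and 1136 CPM, and was lower at 3 or more than at 1 UMI in 6 of 6 libraries.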
